A study of Mus musculus with 6 samples.

Results

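The genes described here encode the machinery that copies chromosomal DNA: 48 genes for origin licensing, the replicative helicase, the polymerases, the sliding clamp and its loader, and the supply of deoxynucleotides. They were taken by gene symbol from a named list, and all 48 were found among the 26096 genes of the deposited table, each on 1 gene ID. RNA had been sequenced from 6 samples of wild-type microglia of the mouse, which are brain-resident macrophages. In 3 samples (FeM CM-treated) the cells had received medium from bone marrow-derived macrophages undergoing ferroptosis, an iron-dependent death driven by lipid peroxidation. In the 3 samples that served as controls (C CM-treated) the medium came from normal macrophages, so both groups had received conditioned medium. How ferroptosis was brought about, for how long the microglia were exposed, and their age and source are not stated in the labels. Nor do the labels say whether each sample was its own culture; the p-values therefore rest on the spread among these samples alone, part or all of which may be technical.

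DNA replication is prepared in G1 phase, when the origin recognition complex, Cdc6 and Cdt1 load the ring-shaped MCM helicase onto DNA. This step is called licensing. At the start of S phase the kinase Cdc7 with its activator Dbf4, together with Cdc45 and the GINS complex, turns the loaded rings into moving helicases, and polymerases alpha, delta and epsilon copy the strands behind them. Many of these genes are transcribed under E2F factors when a cell commits to S phase, and their mRNAs are commonly read as a sign of cycling cells. Microglia of the healthy adult brain divide rarely, whereas cultured microglia can divide in response to growth factors.

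RefSeq promoter windows, 250 bases before to 50 after the gene's start on build GRCm38.p6, were available for 39 of the 48 genes. An E2F-type site was searched for as TTTCCCGC, TTTGGCGC, TTTCGCGC or TTTGCCGC on either strand, where matches on both strands can overlap each other. At least 1 of these was found in 13 of the 39 windows (33.3%), against 2.32% of the first-listed windows of 27025 genes and 4.07% of those of 9874 genes that were tested for expression here. The 13 genes were Mcm3, Mcm5, Mcm6, Mcm7, Orc1, Cdc6, Cdt1, Gins3, Pola1, Pold1, Pold3, Pole2 and Rfc3. Shown next are the 160 bases before the start of 6 genes whose match lies there, which license or fire origins or begin the strands, and of Rrm2 and Pold4, in which none of the 4 words was found. They are written 5′ to 3′ on the gene's strand, with the matching letters in capitals.
Orc1: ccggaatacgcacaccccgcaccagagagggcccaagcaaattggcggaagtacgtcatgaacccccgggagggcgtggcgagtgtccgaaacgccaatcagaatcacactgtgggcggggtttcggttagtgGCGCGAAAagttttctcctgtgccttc
Cdc6: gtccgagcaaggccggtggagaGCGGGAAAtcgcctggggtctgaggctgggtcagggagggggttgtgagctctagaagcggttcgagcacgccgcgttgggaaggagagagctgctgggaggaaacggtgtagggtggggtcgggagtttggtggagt
Mcm5: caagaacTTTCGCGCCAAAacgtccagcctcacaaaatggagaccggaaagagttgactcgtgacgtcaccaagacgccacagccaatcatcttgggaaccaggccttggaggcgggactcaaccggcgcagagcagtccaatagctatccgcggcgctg
Mcm6: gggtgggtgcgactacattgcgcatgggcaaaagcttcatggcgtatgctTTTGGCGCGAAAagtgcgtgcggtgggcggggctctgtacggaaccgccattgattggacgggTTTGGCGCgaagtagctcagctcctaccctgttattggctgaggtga
Gins3: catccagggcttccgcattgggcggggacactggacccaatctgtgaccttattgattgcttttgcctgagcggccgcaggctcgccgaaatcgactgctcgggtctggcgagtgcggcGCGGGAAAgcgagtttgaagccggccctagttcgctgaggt
Pola1: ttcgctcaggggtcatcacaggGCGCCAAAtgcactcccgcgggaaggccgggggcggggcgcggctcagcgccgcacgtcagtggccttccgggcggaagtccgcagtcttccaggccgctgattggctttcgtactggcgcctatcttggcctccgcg
Rrm2: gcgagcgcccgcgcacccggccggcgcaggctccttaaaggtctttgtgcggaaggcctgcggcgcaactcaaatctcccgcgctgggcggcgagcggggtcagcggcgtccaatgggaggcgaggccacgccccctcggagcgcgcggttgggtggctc
Pold4: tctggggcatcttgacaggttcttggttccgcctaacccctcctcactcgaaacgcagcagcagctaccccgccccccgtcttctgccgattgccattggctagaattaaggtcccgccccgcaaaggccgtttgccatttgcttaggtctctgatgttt
These stretches are Orc1 at chr4:108579294-108579453 on the plus strand, Cdc6 at chr11:98907991-98908150 on the plus strand, Mcm5 at chr8:75109349-75109508 on the plus strand, Mcm6 at chr1:128359706-128359865 on the minus strand, Gins3 at chr8:95633399-95633558 on the plus strand, Pola1 at chrX:93632156-93632315 on the minus strand, Rrm2 at chr12:24708094-24708253 on the plus strand and Pold4 at chr19:4231733-4231892 on the plus strand. The match in Mcm5 and the first match in Mcm6 are each a pair of overlapping words on opposite strands. For Mcm5 and Mcm6 the last bases of the RefSeq window were not found in a GENCODE M21 transcript of the gene, whereas for 33 of the 39 windows, among them the other 6 shown, they were. CCAAT, the word bound by the factor NF-Y, was found in 23 of the 39 windows (59%, against 37.9% of all windows and 39.3% of those of tested genes), and TTTGAA, a form of the cell cycle homology region of mitotic promoters, in 6 (15.4%, against 18.1% of all windows and 12.6% of those of tested genes). A match of letters is a description and not evidence of binding.

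The libraries held 39624311 to 41953603 reads with ferroptotic medium and 43419446 to 50557794 with normal medium, worked out from the deposited values. The deposited unit is log2 of a normalized count plus 1, where the count is divided by a size factor per library, and normalized counts below are those values with the log undone. Of the labelled cell type's genes, Csf1r, the receptor for the macrophage growth factor CSF1, had a mean of 58594 normalized counts with ferroptotic and 76237 with normal medium, and the myeloid transcription factor gene Spi1 had 9844 with ferroptotic and 9995 with normal medium. The homeostatic microglia genes P2ry12, Tmem119 and Fcrls were near 0, with 3, 21 and 5 reads over the 6 libraries. Of 12 listed microglia and macrophage genes 9 were tested, of which 3 fell, Csf1r and Trem2 among them, and 1 rose (Tyrobp). By the same test 22.8% of all genes tested fell and 19.7% rose. The list summed to 122936 to 129964 normalized counts with ferroptotic and 137499 to 141930 with normal medium. Trem2, a lipid-sensing receptor of myeloid cells, had 1222, 1305 and 1171 normalized counts with ferroptotic medium against 3087, 3218 and 3193 with normal medium, a change of -1.36 in log2 units (SE 0.06; limma adjusted p = 2.95e-07), larger in size than the median of the replication genes given below. Tyrobp, the adaptor through which Trem2 signals, changed by 0.19 in log2 units. The 2 listed neuronal genes found, Tubb3 and Map2, summed to 55.3 to 69.6 normalized counts with ferroptotic and 5.88 to 16.6 with normal medium. Tubb3 alone was higher, at a mean of 61.3 with ferroptotic and 4.99 with normal medium. Map2, with 21 reads in all, had 1.02 with ferroptotic and 5.60 with normal medium. The 5 fibroblast genes summed to 46.0 to 90.8 with ferroptotic and 14.7 to 21.9 with normal medium. The 5 of 6 listed astrocyte genes found summed to 4182 to 4358 with ferroptotic and 3357 to 3652 with normal medium. Nearly all came from Aldoc and Gja1, which rose by 0.26 and 0.49 in log2 units. Aldh1l1 fell (-0.64, limma adjusted p = 0.0325), and Slc1a3 had 5 reads in all. The 4 of 6 oligodendrocyte-lineage genes found summed to 4182 to 4394 with ferroptotic and 6575 to 7027 with normal medium. Nearly all came from Mbp, which fell (-0.69 in log2 units). Mag rose (1.01, limma adjusted p = 0.00360), at means of 141 with ferroptotic and 68.9 with normal medium. The part of such cells in the results below was not tested. Fewer cells in S phase and less of these mRNAs per cell cannot be told apart in RNA from whole cultures.

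The replication genes were lower with ferroptotic medium nearly throughout. Of the 48, 46 fell and 1, Pold4, rose at a limma adjusted p below 0.05, adjusted over all 15597 genes tested. Of all genes tested, 42.5% passed in either direction, 22.8% lower and 19.7% higher. Among the 46 the limma adjusted p ran from 1.78e-08 to 0.00231. The last of the 48, Fen1, did not pass; 1 of its control libraries stood apart from the other 2. All 48 passed the filter on low counts. The median log2 fold change of the 48 was -0.98, against -0.0050 over all genes tested, and the 46 genes that fell stood at 19.5% to 82.5% of their level with normal medium. A fall of at least 2-fold was called for 20 members, and for 3.7% of all genes tested. The lowest library given normal medium lay above the highest given ferroptotic medium for 46 members, which was also so for 28.2% of all genes tested. Together the 48 genes took 0.280%, 0.277% and 0.272% of the reads with ferroptotic medium and 0.563%, 0.567% and 0.562% with normal medium. The coefficient of variation within a group had a median of 4.27% with ferroptotic and 3.99% with normal medium, so most of the falls were many times the spread between libraries. In the authors' deposited table the false discovery rate was likewise under 0.05 for 46 members that were lower and for 1 that was higher.

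**Figure D1:**
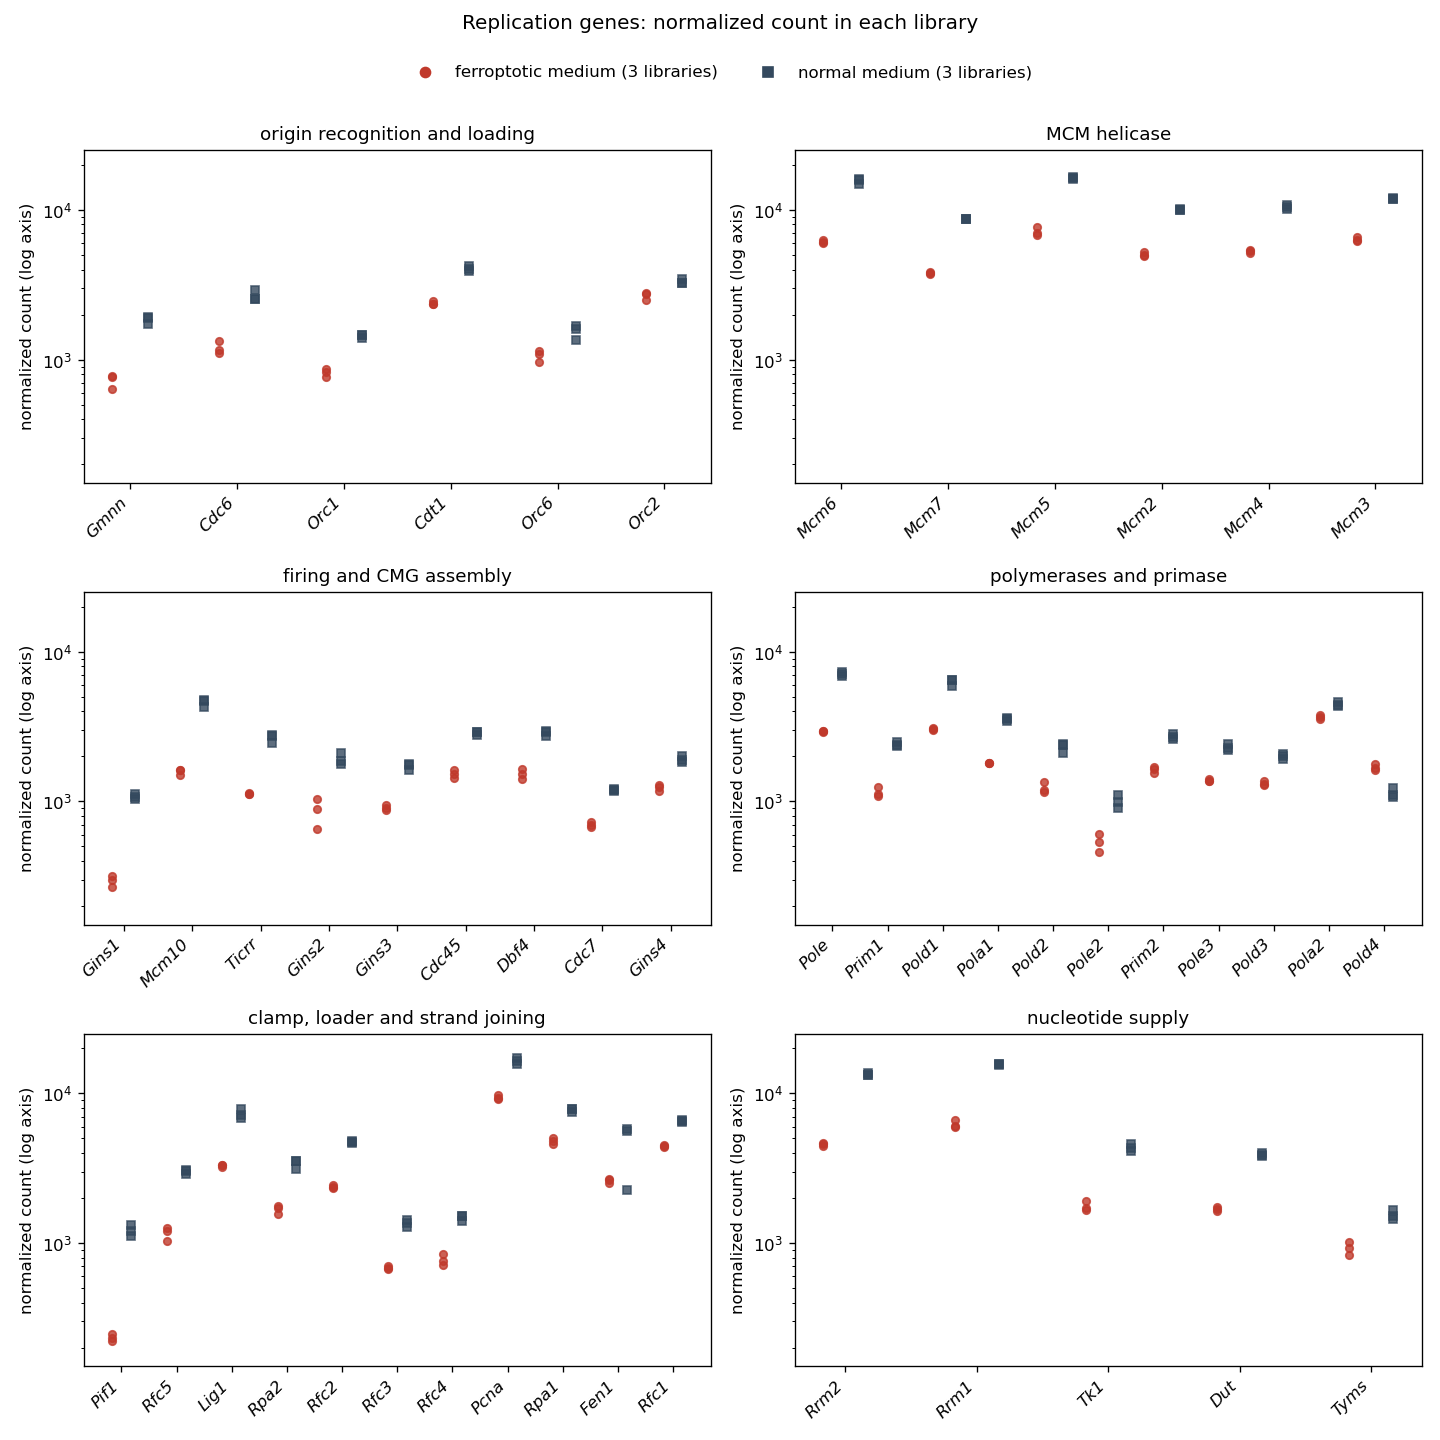
Normalized counts (log axis) of the 48 replication genes in each of the 3 libraries given ferroptotic medium (circles) and the 3 given normal medium (squares), by role. The circles lie below the squares for every gene except Pold4, where they lie above, and Fen1, where 1 control library lies at 2251.

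All 6 genes of origin recognition and helicase loading fell, with log2 fold changes of -1.36 to -0.31. Geminin, the product of Gmnn, binds Cdt1 and blocks a further round of loading after S phase has begun. Gmnn had 773, 638 and 765 normalized counts in the libraries given ferroptotic medium, against 1891, 1743 and 1940.3 in those given normal medium, a change of -1.36 in log2 units (SE 0.09; limma adjusted p = 4.54e-06). The groups lay far apart. Its target Cdt1 had 2461, 2357 and 2354 with ferroptotic medium against 3917, 4227 and 4033 with normal medium, a change of -0.76 in log2 units (SE 0.05; limma adjusted p = 2.84e-06). The loading ATPase gene Cdc6 had 1336, 1161 and 1116 with ferroptotic medium against 2535, 2552 and 2899.7 with normal medium, a change of -1.14 in log2 units (SE 0.08; limma adjusted p = 8.90e-06), with no overlap between groups. Within the origin recognition complex, the cell cycle-regulated subunit gene Orc1 had 869.8, 768 and 833 with ferroptotic medium against 1465, 1391 and 1456 with normal medium, a change of -0.80 in log2 units (SE 0.07; limma adjusted p = 2.32e-05). Orc2, a core subunit, had 2511, 2731 and 2788 with ferroptotic medium against 3441, 3272 and 3256 with normal medium, so its groups were apart but close, with a change of -0.31 in log2 units (SE 0.05; limma adjusted p = 0.00141). Orc6 fell by 0.53 on the log2 scale, at 1137, 1088 and 961 normalized counts with ferroptotic against 1345, 1670.2 and 1597 with normal medium. The groups of Orc1, Orc2 and Orc6 did not overlap. Exons of Nif3l1 lie opposite 29.8% of the merged exon bases of Orc2, and those of Gm12743 opposite 10.8% of Orc1. The other core subunits belong to a list of 51 further replication genes and did not pass: Orc3 had a change of -0.06 in log2 units (SE 0.05; limma adjusted p = 0.381), Orc4 of 0.25 in log2 units (SE 0.10; limma adjusted p = 0.0846) and Orc5 of -0.19 in log2 units (SE 0.08; limma adjusted p = 0.0897). The promoter stretches of Orc1 and Cdc6 printed above each hold 1 E2F-type word.

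The 6 subunits of the MCM helicase, which form a ring of 1 copy each, all fell, by 0.90 to 1.35 on the log2 scale. Mcm6 had the largest fall: 6026, 6265 and 6109 normalized counts with ferroptotic medium against 15902, 14879.8 and 16039 with normal medium, a change of -1.35 in log2 units (SE 0.04; limma adjusted p = 5.18e-08). Mcm7 had 3747, 3767 and 3861 with ferroptotic medium against 8684, 8749.8 and 8755 with normal medium (-1.20, SE 0.03), and Mcm2 had 4979, 4917 and 5259 with ferroptotic medium against 10019.8, 10093 and 10016 with normal medium (-0.99, SE 0.04). In each of these the 3 libraries of a group lay close together and the groups did not overlap. Mcm5, Mcm4 and Mcm3 fell to 44.1%, 50.6% and 53.5% of their level with normal medium. Part of the exons of Mcm7 lies opposite exons of Ap4m1 and Cops6 (7.25% and 1.45% of its merged exon bases), and the labels do not state whether reads were counted by strand.

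Between genes, levels were compared per kilobase of merged exons in GENCODE M21. These lengths matched those implied by the deposited FPKM values (fragments scaled by gene length and library depth), up to 1 common factor and within 5%, for 99.3% of 720 genes and for all 20 members that have a deposited FPKM. A merged length counts every annotated exon, so genes with long, rarely used exons appear lower. With ferroptotic medium the order was Mcm5 (1806 ± 116 normalized counts per kilobase, SD, n = 3), Mcm3 (1694 ± 56.4), Mcm4 (1474 ± 35.7), Mcm6 (1314 ± 26.0), Mcm7 (857 ± 13.7) and Mcm2 (726 ± 26.2), where the libraries of Mcm5 and Mcm3 overlapped. With normal medium it was Mcm5 (4092 ± 53.8), Mcm6 (3345 ± 136), Mcm3 (3164 ± 41.9), Mcm4 (2914 ± 78.3), Mcm7 (1972 ± 8.93) and Mcm2 (1444 ± 6.24), where those of Mcm6 and Mcm3 overlapped. Mcm6 thus stood below Mcm3 and Mcm4 with ferroptotic medium and above Mcm4 with normal medium. Over all 48 genes, Pcna had the highest level per kilobase in both groups, 3920.2 ± 141 with ferroptotic and 6835 ± 327 with normal medium.

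**Figure D2:**
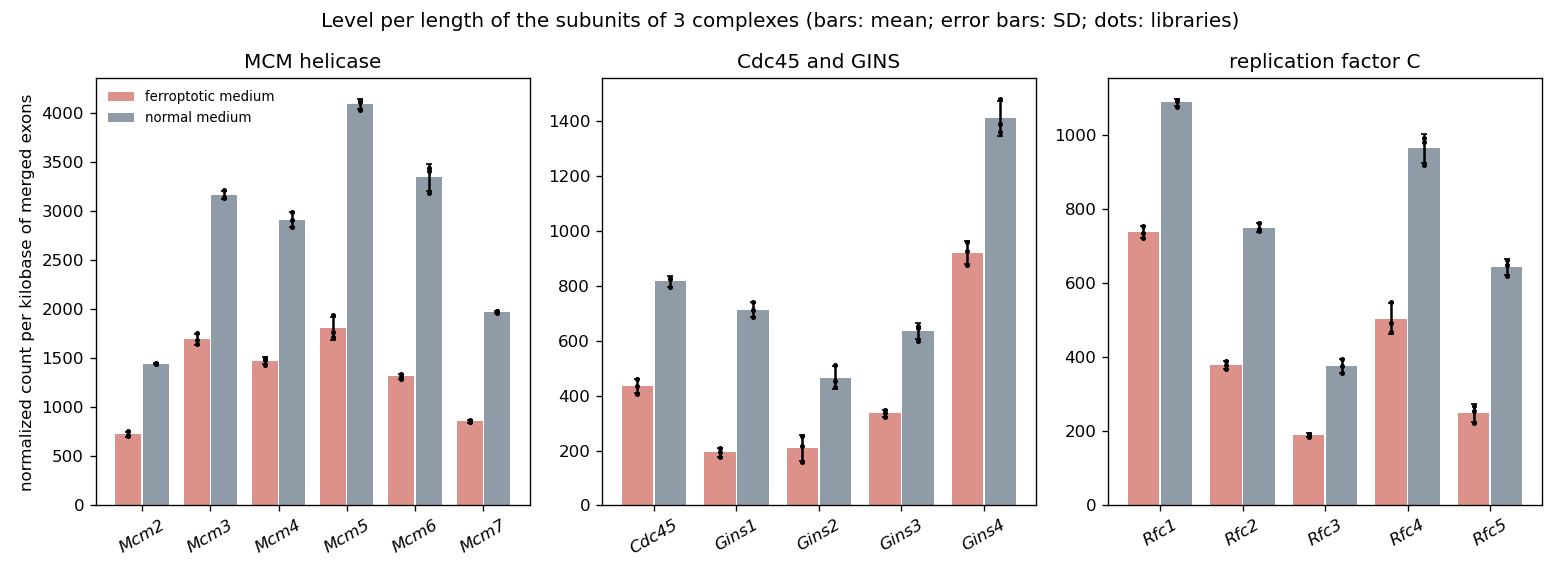
Normalized count per kilobase of merged exons for the subunits of the MCM helicase, of Cdc45 with GINS, and of replication factor C; left bars are ferroptotic and right bars normal medium (mean, SD and 3 libraries). All subunits shown were lower with ferroptotic medium, Gins1 by the largest factor and Gins4 and Rfc1 by the smallest.

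All 9 genes of origin firing and helicase assembly fell. The 4 GINS subunits act as a complex of 1 copy each, and their mRNAs fell by 0.62 to 1.88 on the log2 scale. Gins1 had 297, 267 and 316 normalized counts with ferroptotic medium against 1126, 1077 and 1042 with normal medium, a change of -1.88 in log2 units (SE 0.09; limma adjusted p = 6.46e-07), the second largest fall of the 48. Gins3 fell by 0.92 and Gins4 by 0.62 on the log2 scale. Gins2 fell by 1.17 (SE 0.17; limma adjusted p = 0.00196) with 1030.4, 887 and 655 with ferroptotic medium against 1853, 1766 and 2099.9 with normal medium, the widest spread of any member among the libraries given ferroptotic medium. Exons of Gse1 lie opposite 67.3% of its merged exon bases, and Gse1 had 1824, 1682 and 2328 with ferroptotic medium against 1885, 2188 and 1834 with normal medium. The library with the lowest Gins2 had the highest Gse1; how reads were divided between the genes was not tested. Per kilobase of merged exons, Gins4 had the highest level of the 4 in both groups, 921 ± 42.3 normalized counts per kilobase with ferroptotic and 1411 ± 63.5 with normal medium (SD, n = 3 each). Gins1 had 193 ± 16.2 with ferroptotic and 714 ± 28.0 with normal medium, so that its libraries overlapped those of Gins2 (209 ± 46.3) with ferroptotic medium and lay above them (465 ± 42.3) with normal medium. Differences in fall between the GINS subunits were not tested either.

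Mcm10, which binds the helicase as it is activated, had 1492, 1621 and 1608 normalized counts with ferroptotic medium against 4663, 4743 and 4254 with normal medium, a change of -1.53 in log2 units (SE 0.06; limma adjusted p = 2.13e-07). Ticrr, known as treslin, is needed to bring Cdc45 to origins; it fell by 1.24, and Cdc45 itself by 0.91. The groups were separate for all of these. Of the kinase that fires origins, the catalytic subunit gene Cdc7 had 731, 698 and 673 with ferroptotic medium against 1175, 1191 and 1214 with normal medium (-0.77, SE 0.06) and the activating subunit gene Dbf4 had 1410.0, 1535 and 1657 with ferroptotic medium against 2971, 2721 and 2915 with normal medium (-0.91, SE 0.07). For both genes every library given ferroptotic medium was below every control.

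Among the polymerases, 10 of 11 subunit genes fell and 1 rose. Pole, the catalytic subunit of the leading-strand polymerase epsilon, had 2958, 2901 and 2960.5 normalized counts with ferroptotic medium against 6882, 7267 and 7129 with normal medium, a change of -1.27 in log2 units (SE 0.04; limma adjusted p = 6.30e-08). Its partners Pole2 and Pole3 fell by 0.91 and 0.73 on the log2 scale. The catalytic subunit of the lagging-strand polymerase delta, Pold1, had 3043, 3083 and 3018 with ferroptotic medium against 5895, 6463 and 6446 with normal medium, a change of -1.04 in log2 units (SE 0.05; limma adjusted p = 4.48e-07), and its accessory subunits Pold2 and Pold3 fell by 0.91 and 0.61. The smallest subunit, Pold4, went the other way. It had 1765, 1681 and 1619 normalized counts in the libraries given ferroptotic medium, against 1095, 1229.5 and 1069 in those given normal medium, a change of 0.58 in log2 units (SE 0.07; limma adjusted p = 2.18e-04), so every library given ferroptotic medium was above every control. Polymerase delta can work without this subunit, and in human cells Pold4 protein is degraded in S phase and after DNA damage. Another gene model, AC109138.7, shares 286 exon bases with Pold4 on the same strand (24.6% of its merged exons) and was not in the table. The window of Pold4, of which 160 bases are printed above, holds none of the 4 E2F-type words and holds CCAAT once on each strand.

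Primase and polymerase alpha, which lay down the RNA-DNA primers, fell as well. The primase catalytic gene Prim1 had 1086, 1112 and 1253 normalized counts with ferroptotic medium against 2509, 2339 and 2382 with normal medium (-1.07, SE 0.07), and the large primase subunit gene Prim2 had 1689, 1554 and 1642 with ferroptotic medium against 2698, 2626 and 2816 with normal medium (-0.74, SE 0.05). Pola1, the polymerase alpha catalytic subunit, fell by 0.97 on the log2 scale, with libraries at 1795 to 1811 normalized counts with ferroptotic and 3463 to 3613 with normal medium. Its regulatory partner Pola2 had the smallest fall of the 46, 0.28 on the log2 scale (SE 0.04; limma adjusted p = 8.03e-04), at 3785, 3679 and 3559 with ferroptotic medium against 4391, 4367 and 4607 with normal medium.

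**Figure D3:**
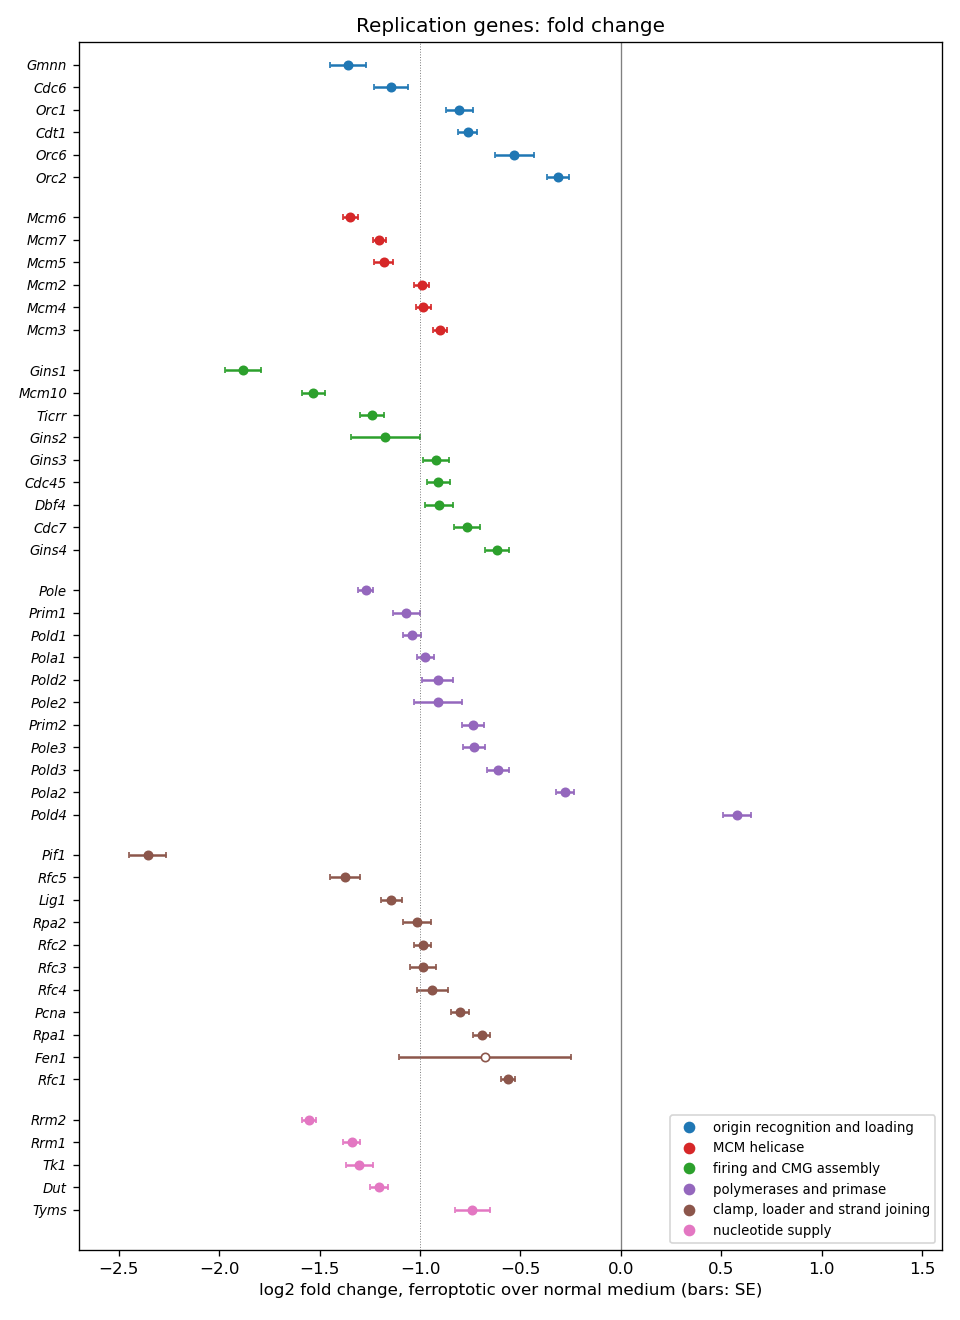
Log2 fold change, ferroptotic over normal medium, with its standard error for each of the 48 replication genes, by role; filled points passed a limma adjusted p of 0.05 and the dotted line marks a log2 fold change of -1. Pif1 has the largest fall at -2.36, Pold4 is the 1 gene to the right of 0, and Fen1 is the 1 open point.

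At the fork, the sliding clamp gene Pcna had 9285, 9791 and 9149 normalized counts with ferroptotic medium against 15611, 16422 and 17182 with normal medium, a change of -0.80 in log2 units (SE 0.04; limma adjusted p = 1.46e-06). Its annotated pseudogene Pcna-ps2 had 885, 901 and 904 with ferroptotic medium against 1627, 1490.3 and 1482 with normal medium and may share reads with it. The clamp loader replication factor C has 1 large and 4 small subunits. The large subunit gene Rfc1 fell least: it had 4424, 4550.2 and 4356 with ferroptotic medium against 6484, 6582 and 6597 with normal medium (-0.56, SE 0.03). Rfc5 fell most, at 1196, 1033 and 1259 with ferroptotic medium against 2889, 3035 and 3093 with normal medium, a change of -1.37 in log2 units (SE 0.08; limma adjusted p = 1.78e-06). Rfc2, Rfc3 and Rfc4 lay between them at -0.99, -0.98 and -0.94. Per kilobase, the levels of the 5 subunits ran from 189.6 ± 4.75 for Rfc3 to 738 ± 16.4 for Rfc1 with ferroptotic medium, and from 376 ± 18.7 to 1089 ± 10.2 for the same genes with normal medium. Exons of Lat2 lie opposite 15.1% of the merged exon bases of Rfc2, those of Eif4a2 opposite 12.7% of Rfc4 and those of Wsb2 opposite 10.7% of Rfc5. The single-strand binding genes Rpa1 and Rpa2 fell by 0.69 and 1.01, and Lig1, the ligase that seals Okazaki fragments, by 1.14 (SE 0.05).

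Pif1, a helicase that unwinds G-quadruplexes and takes part in fork progression and telomere upkeep, had the largest fall of the 48. It had 223, 231 and 248 normalized counts in the libraries given ferroptotic medium, against 1109, 1312 and 1195 in those given normal medium, a change of -2.36 in log2 units (SE 0.09; limma adjusted p = 2.40e-07). The highest library with ferroptotic medium lay far below the lowest control, and the log2 fold change corresponds to 19.5% of the level with normal medium. It was also the member with the lowest level per kilobase with ferroptotic medium, 53.4 ± 2.88 normalized counts per kilobase against 275 ± 23.3 with normal medium.

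Fen1, the flap endonuclease that trims Okazaki fragments, was the 1 member without a call. It had 2664, 2650.1 and 2527 normalized counts in the libraries given ferroptotic medium, against 5604, 5792 and 2251 in those given normal medium. Control replicates 1 and 2 were thus about 2 times the ferroptotic libraries, whereas control replicate 3 lay below all of them. The change was -0.68 in log2 units (SE 0.43; limma adjusted p = 0.286), and without control replicate 3 it was -1.12 (SE 0.05; limma adjusted p = 2.65e-06). The antisense gene Gm10143 covers 78.8% of the merged exon bases of Fen1 on the other strand, and had 6.38, 24.6 and 25.5 normalized counts with ferroptotic medium against 42.1, 84.1 and 34.3 with normal medium. Tmem258, which shares 130 exon bases on the other strand, had 2219, 2155 and 2347 with ferroptotic medium against 2521, 2476 and 2582 with normal medium. Which gene the reads of that library were counted to was not tested. The next highest coefficient of variation of a member among the control libraries was 11.1%, against 43.8% for Fen1.

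All 5 genes of deoxynucleotide supply fell, with a median log2 fold change of -1.30, the lowest of the 6 role classes. Ribonucleotide reductase makes deoxynucleotides from ribonucleotides, with a large subunit from Rrm1 and a small one from Rrm2. Rrm2 had 4466, 4693 and 4571 normalized counts in the libraries given ferroptotic medium, against 13744, 13174 and 13313 in those given normal medium, a change of -1.55 in log2 units (SE 0.03; limma adjusted p = 1.78e-08). Rrm1 had 5960.1, 6058 and 6604 with ferroptotic medium against 15772, 15559 and 15807 with normal medium, a change of -1.34 in log2 units (SE 0.04; limma adjusted p = 8.20e-08). Rrm2b, the alternative small subunit that p53 can induce and that serves repair and mitochondrial DNA, is in the list of further genes and rose: it had 1400.5, 1443 and 1487 with ferroptotic medium against 841, 802 and 966 with normal medium, a change of 0.73 in log2 units (SE 0.08; limma adjusted p = 1.07e-04). The groups lay apart for all 3 genes. The FPKM of Rrm2, deposited by the authors for a short table of genes that includes 20 of the 48, was 34.0 ± 0.95 with ferroptotic and 100.9 ± 2.51 with normal medium (SD, n = 3 each).

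Thymidylate is made along one route by thymidylate synthase, from Tyms, and salvaged by the cytosolic thymidine kinase, from Tk1. Tk1 had 1659.9, 1718 and 1922 normalized counts with ferroptotic medium against 4123, 4334 and 4619 with normal medium (-1.30, SE 0.07) and Tyms had 828, 1013 and 929 with ferroptotic medium against 1655, 1456 and 1509.6 with normal medium (-0.74, SE 0.09; limma adjusted p = 1.79e-04). Neither gene's groups overlapped. Dut, whose product removes dUTP and so keeps uracil out of DNA, fell by 1.20 on the log2 scale. Of the further genes of this supply, Dck, the deoxycytidine kinase, had a change of -1.27 in log2 units (SE 0.04; limma adjusted p = 9.06e-08); it was named after its values were seen. The mitochondrial thymidine kinase gene Tk2 did not pass (limma adjusted p = 0.943), with 1404, 739 and 525 with ferroptotic medium against 852, 743 and 786 with normal medium.

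Ratios within a library do not depend on how libraries were scaled. A set of 9 pairs of members that act together or oppose each other were compared by exact two-sided permutation tests, in which 3 libraries against 3 cannot give a p below 0.1. The values are log2 ratios of normalized counts, not corrected for length, so their change between groups can be read and their sign cannot. Cdt1 over Gmnn was 1.67, 1.89 and 1.62 with ferroptotic medium against 1.05, 1.28 and 1.06 with normal medium, a difference of 0.60, higher in all 3 libraries given ferroptotic medium. Pold1 over Pold4 was 0.79, 0.87 and 0.90 with ferroptotic medium against 2.43, 2.39 and 2.59 with normal medium, a difference of -1.62. Orc1 over Orc2 was -1.53, -1.83 and -1.74 with ferroptotic medium against -1.23, -1.23 and -1.16 with normal medium, a difference of -0.49. In these 3 pairs the groups were separate, and the difference was largest in size for Pold1 over Pold4.

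Of the other 6 pairs, 5 were also separate. Separate groups are common in these data. Among all single genes tested, 28.2% had groups that did not overlap with ferroptotic medium lower, and 25.6% with it higher. The share among ratios of other gene pairs was not worked out. Rrm2 over Rrm1 was -0.42, -0.37 and -0.53 with ferroptotic medium against -0.20, -0.24 and -0.25 with normal medium, a difference of -0.21. Tk1 over Tyms was 1.00, 0.76 and 1.05 with ferroptotic medium against 1.32, 1.57 and 1.61 with normal medium, a difference of -0.56. Prim1 over Prim2 was -0.64, -0.48 and -0.39 with ferroptotic medium against -0.10, -0.17 and -0.24 with normal medium, a difference of -0.33. In all 3 the groups were separate, with the first gene lower relative to the second. Mcm2 over Mcm7 differed by 0.21 and Pcna over Rfc1 by -0.24. The 8 pairs named so far each had an exact permutation p = 0.1, the smallest this design allows, and an adjusted p = 0.113 over the 9 pairs. Cdc7 over Dbf4 was -0.95, -1.14 and -1.30 with ferroptotic medium against -1.34, -1.19 and -1.26 with normal medium, a difference of 0.14 (exact permutation p = 0.3); these groups overlapped.

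**Figure D4:**
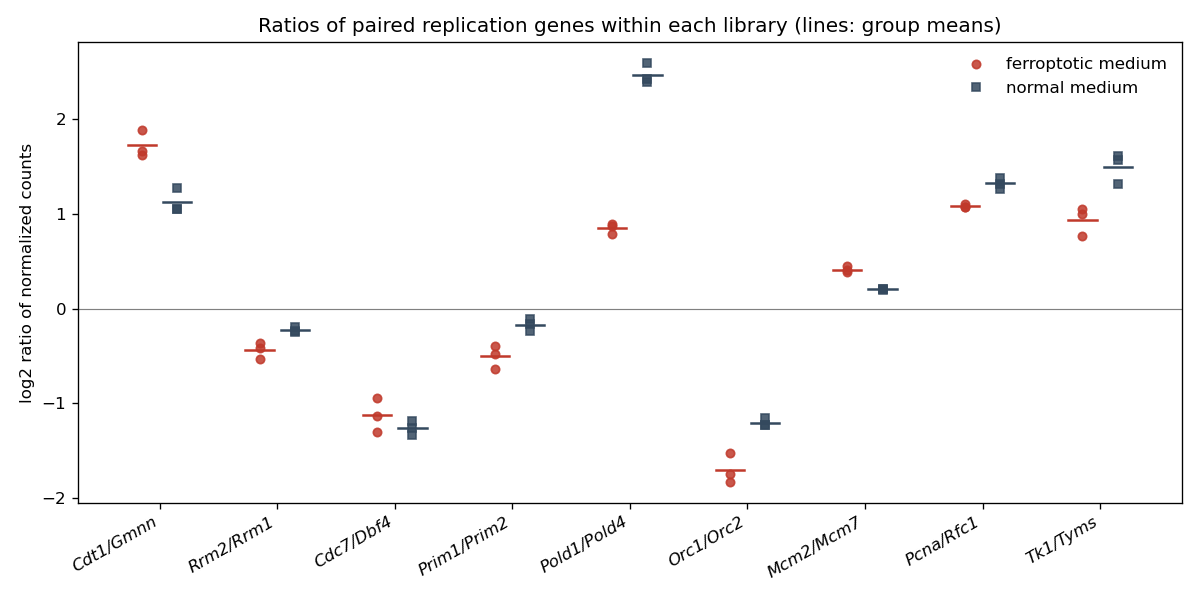
Log2 ratio of normalized counts of 9 gene pairs within each library given ferroptotic medium (circles, left) or normal medium (squares, right), with group means as lines. The groups overlap for Cdc7 over Dbf4 and lie farthest apart for Pold1 over Pold4, at means of 0.85 with ferroptotic and 2.47 with normal medium.

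The list of further replication genes, chosen like the members with earlier results of these data known, held 52 names, of which 51 were in the table and tested. The test called 39 of these lower and 2 higher and left 10 without a call. The median of their log2 fold changes was -0.72. Over all genes tested, 22.8% were called lower and 19.7% higher, and the median was -0.0050. The 4 with the smallest p-values were Top2a, the topoisomerase that untangles copied DNA (-1.52), Uhrf1 (-1.32) and Dnmt1 (-1.14), which copy DNA methylation to the new strand, and Clspn, a mediator of the checkpoint at stalled forks (-1.46). The genes that rose were Rrm2b and Mtbp, whose product works with treslin in origin firing (0.36, limma adjusted p = 7.49e-04). Besides the Orc genes, Poldip2 (-0.10, limma adjusted p = 0.0814) and Mcm9, a helicase of repair rather than of S phase (0.09, 0.369), were among those that did not pass. A list of 14 genes of mitosis fell in full, with a median of -1.76, against -0.98 for the replication genes; summed, it held 32661 to 34799 normalized counts with ferroptotic and 107726 to 112345 with normal medium. Lists of genes were described by counts and medians, and whether they differ from each other was not tested.

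Members with and without an E2F-type word had overlapping log2 fold changes. The 13 members whose window held one had log2 fold changes of -1.35 to -0.61, with a median of -0.97, and the 26 whose window held none had -1.55 to 0.58, with a median of -0.91. Mcm6 had the largest fall in the first set (-1.35) and Rrm2 in the second (-1.55). The 9 members without a window, Pif1, Gins1 and Gmnn among them, are in neither set. Whether the sets differ was not tested.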

How the data were processed

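RNA-seq values of 3 FeM CM-treated and 3 C CM-treated samples of microglia were analysed; samples were grouped by the treatment label. The deposited table gives log2 values per gene, which the authors made from normalized counts plus 1. The tools named, per the submitters' processing notes, were R 3.4.3, DESeq2 1.18.1, the aligner HISAT2 2.1.0 and the read trimmer fastp 0.17.1. The sources used here name no build, annotation, counting tool or strandedness of counting. The deposited p-values and log2 fold changes are the authors' own comparison, and the deposited FPKM values, from a short table of genes chosen by the authors, were used only to check gene lengths and for Rrm2.

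Normalized counts were multiplied by a size factor worked out for each library. For normalized counts up to 1000 the products were within 0.01 of whole reads, which may be estimated rather than raw counts. Read totals were 39624311 to 50557794. The whole reads were not used for the main test, because the deposited unit is a log2 value and not a count as had been assumed. With R 4.3.3 and limma 3.58.1, a two-sided moderated test (trend and robust options) was run on the log2 values of the 15597 genes that reached 10 normalized counts in 3 or more libraries, with Benjamini-Hochberg adjustment at 0.05. Fold changes are on the log2(normalized count + 1) scale. The test was run on simulated counts in which every gene had the same dispersion and no library stood apart. That check does not cover single outlying libraries, as seen for Fen1. Within groups, libraries were farther apart than counting error allows (chi-square per degree of freedom 16.6 or more), so none was treated as the same library sequenced again. This measure cannot tell separate cultures from separate preparations of the same culture. A total of 26051 of 26096 gene IDs matched GENCODE M21, used for exon lengths and overlaps.

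Members and lists were chosen with earlier results of these data known. Values in every library are given for the 2 members with the largest fold changes in each role class, those that rose or did not pass, and the members of the pairs. Outside this rule they are also given for Orc6, Gins2 and Pola2. Of the other replication genes, the 4 with the smallest p-values in each direction and up to 5 that did not pass are named; Dck, Tk2 and Chtf8 were named besides these, after their values were seen. The alternatives were a lower filter, quantile normalization, limma-voom on whole reads, a pseudocount of 10, no trend, a replicate block and leaving out each library.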

Additional observations from a re-analysis of the deposited data

How the results depend on the processing

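Of 576 combinations of a member and an alternative, 575 kept the direction and the side of the threshold. The exception was Fen1, which passed only without control replicate 3 (log2 fold change -1.12, limma adjusted p = 2.65e-06; range over the alternatives 2.65e-06 to 0.545). The highest limma adjusted p of any other member under any alternative was 0.0162. The median log2 fold change of the members, -0.98 as reported, was -0.926 under quantile normalization and -0.926 under limma-voom on whole reads, which moved the median of all genes to 0.048. Leaving out 1 library at a time gave 47 to 48 member calls, 46 to 47 of them lower and 1 higher, a member median of -0.988 to -0.966, 5798 to 6188 calls over all genes and 40 to 43 among the other replication genes. Replicate numbers did not pair the samples (correlation of deviations 0.0086, -0.020 and -0.039); with a replicate block there were 47 member calls, 42 among the other replication genes and 6226 over all genes. Depth limited the members little: the lowest group mean was 234 normalized counts, for Pif1 with ferroptotic medium. Reads that overlapping genes may share are a further limit for Fen1, Gins2, Orc2 and Pold4.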

Other observations

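Among the other replication genes, 2 had a single library far from its group. Chtf8, whose product is part of an alternative clamp loader, had 2185, 6425 and 6659 normalized counts with ferroptotic medium against 7121, 7022 and 7043 with normal medium, so replicate 1 with ferroptotic medium stood below the other 5 libraries. Tk2 had 1404, 739 and 525 with ferroptotic medium against 852, 743 and 786 with normal medium. These genes were picked out after their values were seen. Whether a single library departs from its group was not tested.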
